A study of Mus musculus with 15 samples.

Results

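The microRNAs described here are 40 mature miRNAs encoded between Dlk1 and Dio3 on mouse chromosome 12. They are a fixed list of miRNAs of the Meg3, Rian and Mirg region, set with earlier results of these data known. How many have counts, and their share of the region's counts, may therefore depend on that choice. All 40 were among the 1915 mature miRNAs in the deposited table, and each had at least 1 count in at least 1 library. They were measured by small RNA sequencing in acini, the clusters of enzyme-secreting cells of the exocrine pancreas, prepared from C57BL/6 mice of 7 to 8 weeks. There were 5 groups of 3 libraries. Control acini received no drug. The other groups received caerulein, a peptide agonist of the cholecystokinin receptor, at 100 nM (called the pathological dose in the series' design) or at 100 pM (the physiological dose), or the bile acid TLC-S at 250 uM or 62.5 uM. The sources used here give neither the duration of treatment nor the sex of the mice. The labels' protocol speaks of RNA pools from independent acinar preparations without saying whether each library was its own pool, so p-values here measure spread between libraries that may be only technical.

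The region between Dlk1 and Dio3 is imprinted: its protein-coding genes Dlk1, Rtl1 and Dio3 are expressed mainly from the paternal chromosome, whereas the non-coding RNAs Meg3, Rian and Mirg, and the miRNAs processed from the same strand, come from the maternal chromosome. Several of the miRNAs encoded opposite Rtl1, mmu-miR-127 and mmu-miR-136 among them, pair perfectly with its mRNA. The miRNAs are often considered products of 1 long maternal transcript, and they are best known for expression in embryo, placenta, brain and stem or mesenchymal cells. A mature miRNA recognises its targets mainly through its seed, bases 2 to 8 from the 5′ end. The 2 arms of a hairpin, 5p and 3p, are cut from the same precursor, and usually 1 of them is retained more than the other.

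In the GRCm38 annotation the 40 members came from 32 hairpins, all on the plus strand, within chr12:109585789-109743795 (158 kb). They lie in 3 places. The first, called the Rtl1 part here, holds 11 members from 7 hairpins at chr12:109585789-109595388, and 5 of these hairpins (Mir431, Mir433, Mir127, Mir434 and Mir136) lie opposite an exon of Rtl1, which is transcribed from the minus strand. The second is Mir370 alone, in an intron of Rian at chr12:109618258-109618336. The third, called the Mirg cluster here, holds 28 members from 24 hairpins at chr12:109709060-109743795, of which 7 hairpins lie in an exon and 3 in an intron of Mirg, and the others have no host gene in the annotation. Mir379, Mir411, Mir300 and Mir381 are among those without a host gene, Mir382 and Mir134 lie in exons of Mirg, and Mir154 and Mir541 in its introns.

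RefSeq (GRCm38.p6) held the mature sequence of 37 of the 40 members; mmu-miR-485-5p, mmu-miR-376c-3p and mmu-miR-487b-3p are only named. The 14 sequences below belong to the members on which the results turn, in the order of the locus, 5′ to 3′, with the seed in capitals.
mmu-miR-433-3p: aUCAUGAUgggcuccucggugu
mmu-miR-127-5p: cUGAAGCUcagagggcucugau
mmu-miR-127-3p: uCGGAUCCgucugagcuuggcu
mmu-miR-136-5p: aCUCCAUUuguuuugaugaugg
mmu-miR-136-3p: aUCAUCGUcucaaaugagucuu
mmu-miR-370-3p: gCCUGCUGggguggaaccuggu
mmu-miR-379-5p: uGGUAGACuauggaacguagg
mmu-miR-411-5p: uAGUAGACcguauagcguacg
mmu-miR-300-3p: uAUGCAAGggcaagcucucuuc
mmu-miR-381-3p: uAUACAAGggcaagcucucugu
mmu-miR-382-3p: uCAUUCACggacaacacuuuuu
mmu-miR-134-5p: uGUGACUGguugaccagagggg
mmu-miR-154-5p: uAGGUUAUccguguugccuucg
mmu-miR-541-5p: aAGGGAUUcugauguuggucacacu

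The 37 sequences had 37 different seeds, so no 2 members shared one. In 5 pairs the seeds differed at 1 base, counted from the 5′ end of the first miRNA named. Both members of 2 such pairs are printed above: mmu-miR-379-5p and mmu-miR-411-5p (G2A), and mmu-miR-300-3p and mmu-miR-381-3p (G4A), which also have most of their other bases in common. The other 3 pairs were mmu-miR-411-3p and mmu-miR-410-3p (G4A), mmu-miR-376b-3p and mmu-miR-376a-3p (A4G), and mmu-miR-154-3p and mmu-miR-369-3p (C4A). Seeds were shared with miRNAs that are not members in 7 cases. Among these, mmu-miR-329-3p (67 counts over the 15 libraries) has the seed of mmu-miR-362-3p, which is encoded elsewhere and had 14134 counts.

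Library totals ranged from 535473 counts (caerulein 100 nM replicate 2) to 5087728 counts (caerulein 100 nM replicate 3). The members together had 21236 counts, between 0.0419% and 0.0980% of a library's counts (mean 0.0684% ± 0.0178, SD, n = 15). In 17 members there was a count in every library, whereas 5 members had a total of 10 counts or fewer over all libraries. Of the 4 acinar marker miRNAs (mmu-miR-148a-3p, mmu-miR-216a-5p, mmu-miR-216b-5p and mmu-miR-217-5p) all 4 had counts in every library; their summed level in CPM (counts scaled by TMM to a common library size) had a median of 331718 and ranged from 238319 to 787156, the highest being control replicate 3. All 7 markers of mesenchymal and stellate cells and both endothelial markers were also present in every library.

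Levels differed widely among the members. The most abundant was mmu-miR-127-3p, from the Rtl1 part, which held 166 CPM ± 45.6 (SD, n = 15) and ranked number 124 of all miRNAs by mean level. It was followed by mmu-miR-379-5p, the first miRNA of the Mirg cluster, with 107 CPM ± 41.0, and mmu-miR-381-3p with 67.1 CPM ± 17.6. The next were mmu-miR-136-5p with 54.7 CPM ± 21.7, mmu-miR-136-3p with 45.8 CPM ± 12.1 and mmu-miR-541-5p with 43.8 CPM ± 10.4. These 6 held 71.5% of the members' CPM. The highest, mmu-miR-127-3p, was above mmu-miR-379-5p in 15 of 15 libraries, and mmu-miR-379-5p above mmu-miR-381-3p in 12. Further down the order neighbours overlapped: mmu-miR-136-5p was above mmu-miR-136-3p in 9 libraries, and mmu-miR-136-3p above mmu-miR-541-5p in 8.

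In all, 11 members had a mean of at least 10 CPM, 22 had a mean from 1 to under 10 CPM, and 7 were under 1 CPM. At the low end, mmu-miR-154-3p had 1 count in 1 library, mmu-miR-323-3p had 4 counts in 3 libraries and mmu-miR-543-3p had 6 counts in 2. The low-count filter kept 21 members. The lowest kept was mmu-miR-433-3p at 2.08 CPM, and the highest of the 19 left out was mmu-miR-329-3p at 2.05 CPM. Arms of 1 hairpin could stand far apart: mmu-miR-411-3p had 35 counts and mmu-miR-411-5p 590, at a mean of 18.6 CPM. The other 74 annotated mature miRNAs between Dlk1 and Dio3 had 1583 counts in total, and 44 of them had any, so the 40 members held 93.1% of the counts of the region. The hairpins of mmu-miR-3071 and mmu-miR-3544, which lie opposite member hairpins, had 0 counts in every library.

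**Figure D1:**
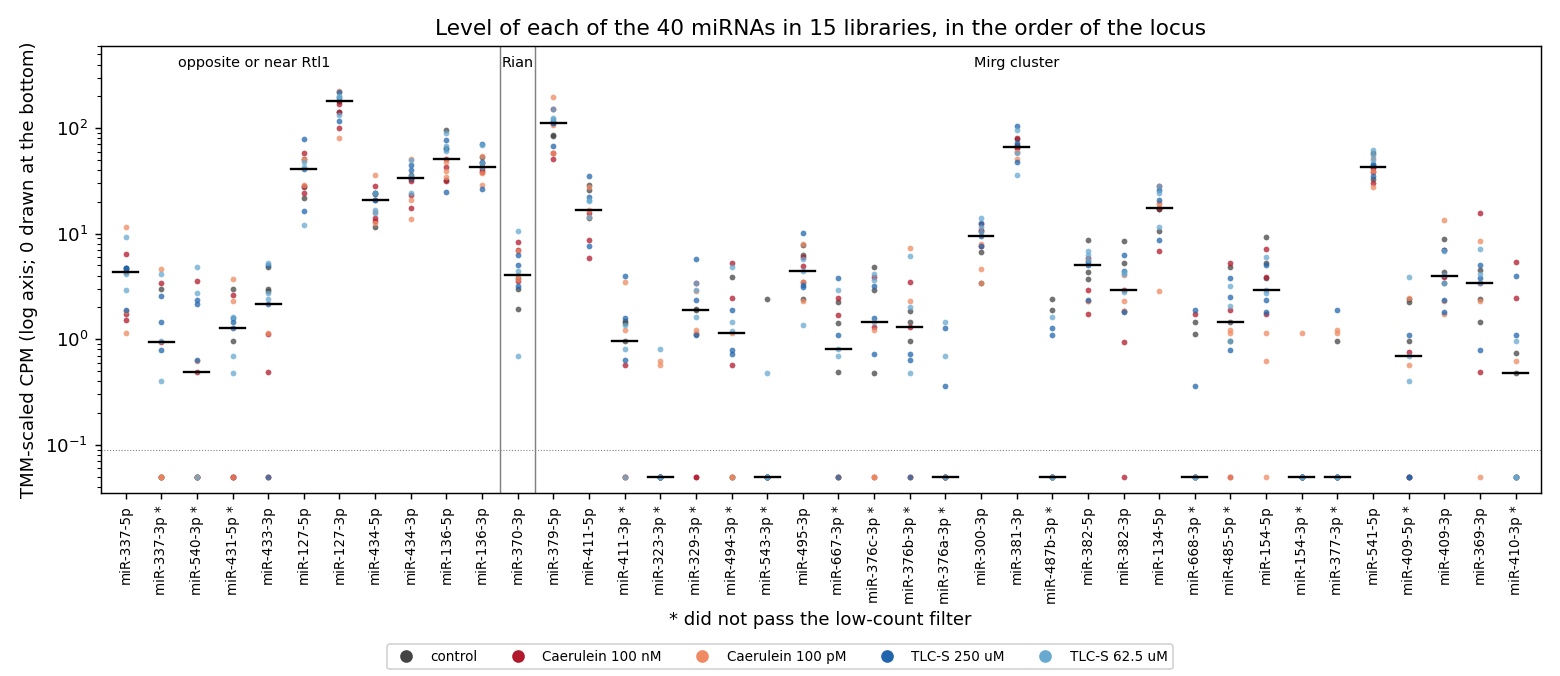
TMM-scaled CPM (log axis) of each of the 40 members in the order of the locus, 1 point per library coloured by group, with a bar at the median of the 15 libraries and values of 0 drawn at the bottom. The members reach from mmu-miR-127-3p, with a mean of 166 CPM, down to 7 members with a mean under 1 CPM, and in the abundant members the colours are mixed.

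Summed over the 40 members, control libraries held 606, 772 and 672 CPM (683 ± 83.5, SD, n = 3). With caerulein the sums were 491, 532 and 732 CPM at 100 nM (585 ± 129) and 419, 732 and 794 CPM at 100 pM (649 ± 201). With TLC-S they were 515, 861 and 747 CPM at 250 uM (708 ± 176) and 645, 884 and 761 CPM at 62.5 uM (763 ± 119). Every treated group overlapped the controls, and the signs of the smaller differences rested on single libraries. The log2 ratio of group means to control was -0.075 with caerulein 100 pM, but 0.16 without its replicate 1 and 0.022 without control replicate 2. With TLC-S 250 uM it was 0.051, but -0.11 without its replicate 2 and -0.029 without control replicate 1. A bulk sum cannot tell fewer cells of a type from less RNA per cell.

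Treatment with caerulein at 100 nM, compared with no drug, left no member past the threshold of an adjusted p of 0.05 (edgeR's quasi-likelihood test with Benjamini-Hochberg adjustment over 351 miRNAs). Over all miRNAs tested the share called was 0%. At an unadjusted p under 0.05 there were 3 of 21 members, all with lower values, against 3.42% of all miRNAs (12 of 351). DESeq2 gave 0 members after adjustment and 3 before it. The median log2 difference of the 21 members was -0.28, with 16 negative, beside a median of 0.03 over all 351. Single libraries moved it, to -0.48 without caerulein 100 nM replicate 3, to -0.086 without replicate 1 of that group and to -0.042 without control replicate 2. None of the markers of other cells was called in the same comparison. The median was -0.13 over the mesenchymal and stellate markers (1 of 7 positive), -0.81 over the endothelial markers (0 of 2 positive) and -0.44 over the leukocyte markers (0 of 3 positive). It was 0.02 over the acinar (2 of 4 positive), 0.11 over the islet and neuroendocrine (5 of 5 positive) and 0.32 over the erythrocyte markers (2 of 3 positive). The part of such cells in the members' values was not tested.

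The 3 members came from different hairpins of the Rtl1 part and the Mirg cluster. In controls mmu-miR-411-5p stood at 14.05, 29.2 and 25.8 CPM and with caerulein 100 nM at 5.88, 8.75 and 15.8 CPM. The highest treated library was thus above the lowest control, and the log2 difference was -1.09 (SE 0.49, adjusted p = 0.984 by edgeR), or -1.76 without caerulein 100 nM replicate 3. For mmu-miR-382-3p the controls held 5.33, 1.87 and 8.60 CPM and the treated libraries 2.94, 0 and 0.942 CPM, a log2 difference of -1.76 (SE 0.79), again with overlap. For mmu-miR-433-3p, controls held 4.84, 2.99 and 2.87 CPM and treated libraries 0.490, 0 and 1.13 CPM, which did not overlap, with a log2 difference of -2.05 (SE 0.94, adjusted p = 0.984 by edgeR). These are small numbers of reads: the 3 treated libraries held 1, 0 and 6 counts of mmu-miR-433-3p, and the controls 10, 8 and 6. By contrast mmu-miR-370-3p, the miRNA in Rian, had its highest group mean here, 8.33, 7.00 and 3.58 CPM against 1.94, 2.99 and 3.82 CPM in controls, a log2 difference of 1.01 (SE 0.71) that overlapped and did not pass.

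Caerulein at 100 pM, the physiological dose, gave the member with the smallest p of all comparisons, mmu-miR-154-5p, which also did not pass. It stood at 9.20, 5.23 and 3.82 CPM in controls and at 1.15, 0.615 and 0 CPM with 100 pM. The groups did not overlap, and the 3 treated libraries held 2, 1 and 0 counts against 19, 14 and 8 in controls. The log2 difference was -3.02 (SE 0.89, adjusted p = 0.406 by edgeR). The same direction was seen in mmu-miR-433-3p, at 1.15, 0 and 0 CPM, with a log2 difference of -2.78 (SE 1.15, adjusted p = 0.722 by edgeR). Without caerulein 100 pM replicate 1 both remaining treated libraries were at 0 counts, and the fitted value, which is then no bound, was -5.87. These were the 2 members with an unadjusted p under 0.05, against 6.84% of all miRNAs; 0 members and 0% of all miRNAs were called after adjustment, and DESeq2 also called 0 members.

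Among the abundant members the third in order of p was mmu-miR-136-5p, at 64.4, 95.7 and 32.5 CPM in controls and 47.6, 34.5 and 39.1 CPM with 100 pM. All 3 treated values lay within the control range, and the log2 difference was -0.67 (SE 0.38, adjusted p = 0.868 by edgeR), or -0.28 without control replicate 2. For mmu-miR-381-3p the 100 pM libraries held 59.1, 59.1 and 50.5 CPM, all below the controls at 68.8, 67.3 and 78.8 CPM, but the log2 difference was only -0.34 with a 95% interval from -1.01 to 0.33. Over the 21 members the median was -0.23, with 13 negative, beside 0.01 over all miRNAs. It was -0.62 without caerulein 100 pM replicate 2, -0.0076 without replicate 1 of that group and -0.060 without control replicate 2. The mesenchymal and stellate markers had a median of 0.09 here (4 of 7 positive). The 2 caerulein comparisons share their control libraries, so their common direction in mmu-miR-433-3p is not 2 independent observations.

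**Figure D2:**
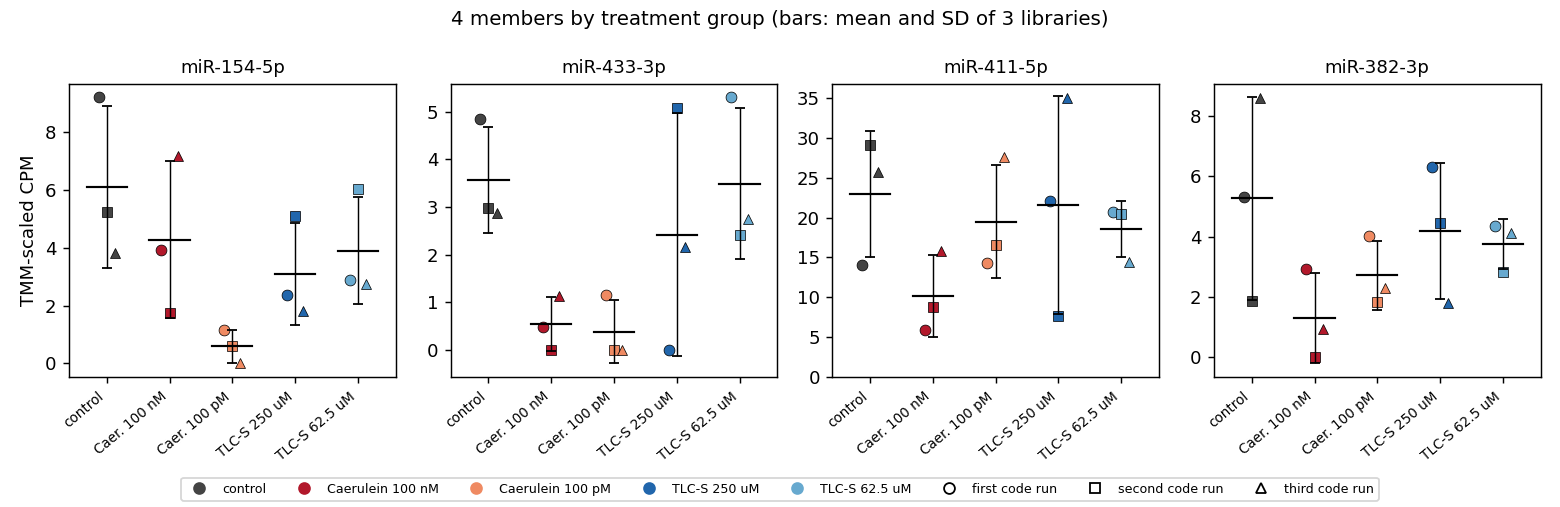
TMM-scaled CPM of mmu-miR-154-5p, mmu-miR-433-3p, mmu-miR-411-5p and mmu-miR-382-3p in each library, by treatment group, with the mean and SD of 3 libraries and the marker shape giving the run of library codes. The caerulein 100 pM libraries of mmu-miR-154-5p lie at 1.15 CPM or below, under the controls and with no overlap. For mmu-miR-433-3p the libraries of both caerulein doses lie below the controls. In mmu-miR-411-5p and mmu-miR-382-3p every treated group overlaps the controls.

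With TLC-S at 250 uM no member was called, against 0% of all miRNAs, and 0 members had an unadjusted p under 0.05, against 1.14% of all miRNAs. The smallest p among the members belonged to mmu-miR-154-5p, with 2.36, 5.09 and 1.81 CPM and a log2 difference of -1.01 (SE 0.68, adjusted p = 0.999 by edgeR), or -0.55 without control replicate 1 and -1.51 without TLC-S 250 uM replicate 2. Next came mmu-miR-300-3p, whose sequence is close to that of mmu-miR-381-3p, at 9.45, 12.7 and 7.60 CPM against 3.39, 6.73 and 10.5 CPM in controls. Its log2 difference was 0.51, and from 0.24 without control replicate 1 to 0.94 without control replicate 3. For mmu-miR-370-3p the values were 6.30, 3.18 and 5.07 CPM (log2 difference 0.71). The most abundant members had intervals around 0: for mmu-miR-127-3p the log2 difference was 0.08, with a 95% interval from -0.60 to 0.75, and for mmu-miR-379-5p it was 0.06, from -0.72 to 0.85. The members' median was 0.05, beside -0.03 over all miRNAs, and its sign depended on single libraries, from -0.17 without TLC-S 250 uM replicate 2 to 0.19 without replicate 1 of that group. The mesenchymal and stellate markers had a median of 0.04 (5 of 7 positive).

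TLC-S at 62.5 uM likewise called no member, while 0.57% of all miRNAs (2 of 351) passed. At an unadjusted p under 0.05 there were 0 members against 7.41% of all miRNAs. The members with the smallest p were higher than in controls. The 62.5 uM libraries held 11.6, 14.1 and 10.3 CPM of mmu-miR-300-3p (log2 difference 0.81, SE 0.50, adjusted p = 0.794 by edgeR; 0.51 without control replicate 1 and 1.24 without control replicate 3). For mmu-miR-379-5p, libraries held 122, 152 and 124 CPM against 84.3, 86.7 and 113 CPM in controls, with no overlap, and a log2 difference of 0.49 (SE 0.38, 95% interval from -0.29 to 1.27). In the same comparison 7 of 7 mesenchymal and stellate markers had positive differences (median 0.13, 0 called), and their part in this value was not tested. For mmu-miR-370-3p, 10.6, 4.42 and 0.689 CPM gave a log2 difference of 0.88, which rested on replicate 1: without it the difference was -0.06. The median of the members was 0.09, beside -0.01 over all miRNAs, with -0.0058 without TLC-S 62.5 uM replicate 2, 0.29 without replicate 1 of that group and 0.28 without control replicate 2.

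**Figure D3:**
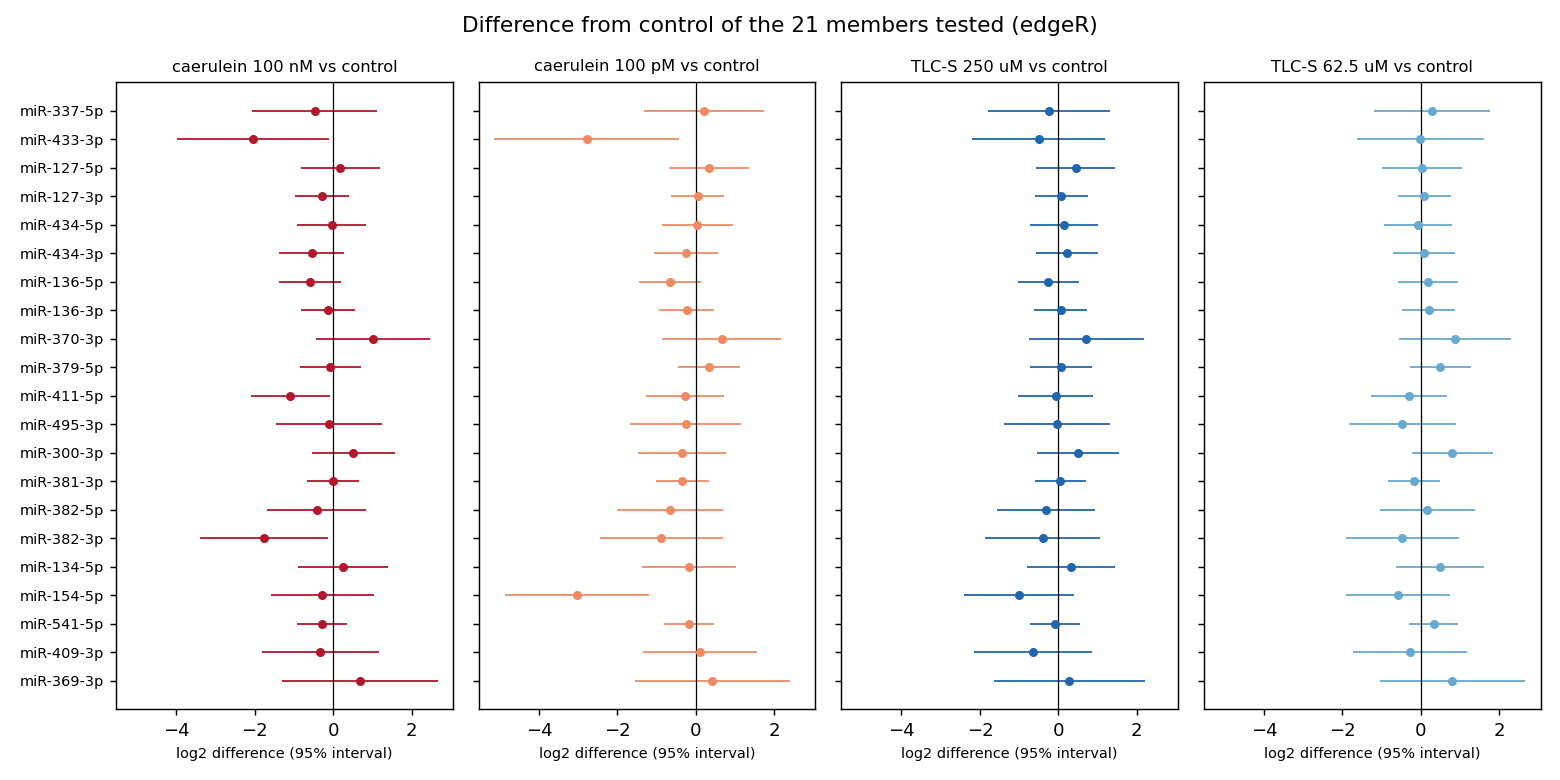
Log2 difference from control of the 21 tested members in the 4 treatments, with 95% intervals (edgeR). Points lie on both sides of 0, from -3.02 for mmu-miR-154-5p with caerulein 100 pM to 1.01 for mmu-miR-370-3p with caerulein 100 nM, and the intervals of the less abundant members are wide.

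The dose comparisons gave no called member either. Between caerulein 100 nM and 100 pM, 0% of all miRNAs were called and 1.71% had an unadjusted p under 0.05. The only member among the latter was mmu-miR-154-5p, at 3.92, 1.75 and 7.16 CPM with 100 nM, all above the 100 pM libraries; its log2 difference was 2.75 (SE 0.91, adjusted p = 0.986 by edgeR). For mmu-miR-411-5p, whose libraries held 14.3, 16.6 and 27.6 CPM at 100 pM, the difference was -0.82 (SE 0.51), and for mmu-miR-300-3p, at 3.44, 8.00 and 4.60 CPM at 100 pM against 10.8, 12.2 and 7.72 CPM at 100 nM, it was 0.85 (SE 0.55). The first ran from -1.45 without caerulein 100 nM replicate 3 to -0.45 without replicate 1 of that group, and the second from 0.56 without caerulein 100 pM replicate 1 to 1.38 without replicate 2 of that group. The 100 pM values of mmu-miR-154-5p thus enter both this comparison and the one with control.

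Between TLC-S 250 uM and 62.5 uM, 1.14% of all miRNAs (4 of 351) were called, none of them a member, and 8.83% had an unadjusted p under 0.05, again with 0 members. The members' median was -0.17, with 14 of 21 negative, beside 0.01 over all miRNAs. It ran from -0.37 without TLC-S 250 uM replicate 2 to -0.058 without TLC-S 62.5 uM replicate 2, and was 0.024 over the members with a mean of at least 10 CPM. The smallest p was that of mmu-miR-541-5p, with 35.4, 45.1 and 45.6 CPM at 250 uM, all below 56.0, 50.2 and 62.01 CPM at 62.5 uM (log2 difference -0.41, SE 0.31; -0.24 without TLC-S 250 uM replicate 1). The same order without overlap was seen in mmu-miR-382-5p and in mmu-miR-379-5p, the latter at 67.7, 117 and 111 CPM against 122, 152 and 124 CPM (log2 difference -0.43, SE 0.38; -0.16 without TLC-S 250 uM replicate 1). The share of all miRNAs with such separation, in this or the other comparisons, is not given here. Such cases are therefore no result about the members as a set. For mmu-miR-136-5p the 250 uM libraries held 63.0, 76.3 and 24.97 CPM and the 62.5 uM libraries 60.3, 90.4 and 67.5 CPM, which overlapped. The adjusted p-values of these members began at 0.884 (edgeR).

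Across all 5 groups at once, an F test called 0 members and 0.855% of all miRNAs (3 of 351). The only member with an unadjusted p under 0.05 was mmu-miR-154-5p (adjusted p = 0.548 by edgeR), against 7.41% of all miRNAs. The difference between the dose effects of caerulein and TLC-S was largest in mmu-miR-154-5p, at 3.16 on the log2 scale, and did not pass (adjusted p = 0.910, edgeR). For caerulein 100 nM against control, the bounds of the unadjusted 95% interval lay a median of 1.06 from the estimate over the members and 0.73 over all miRNAs.

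The 2 arms were both tested in 4 hairpins, and their ratio needs no scaling between libraries. The 3p arm dominated in Mir127: on the log2 scale 3p counts over 5p counts gave 2.20 ± 0.58 (SD, n = 15), above 0 in 15 of 15 libraries. In Mir434 it was 0.66 ± 0.72, above 0 in 12 libraries. The arms of Mir136 were nearly balanced, at -0.20 ± 0.58 with the 3p arm higher in 6 libraries, and Mir382 was at -0.53 ± 1.04 with the 3p arm higher in 3. Against control, 16 differences of these ratios were tested with an exact two-sided permutation test of 3 against 3 libraries, which cannot go below p = 0.1. The smallest exact p was 0.4, and all adjusted values were 1. The largest difference was that of Mir382 with caerulein 100 nM, -1.15 on the log2 scale. Its ratios were 0, -1.58 and -2.52 in caerulein 100 nM replicates 1 to 3 against -0.69, -0.93 and 0.96 in the controls, which overlapped. Those treated libraries held 6, 0 and 5 counts of the 3p arm and 6, 1 and 31 of the 5p arm. With 5 counts added to each arm in place of 0.5, the difference was -0.57.

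The spread within groups had an order of its own. The library codes in the titles fall into 3 runs, AJ1 to AJ5, AJ11 to AJ15 and AJ111 to AJ115, with 1 library of every group in each run; the labels do not say what libraries of a run share. The sums of the 40 members were 535 CPM ± 90.7 in the first run, 756 ± 140 in the second and 741 ± 44.8 in the third (SD, n = 5 each). An F test of the runs in the model with the 5 groups, chosen after these values were seen, called 4 of 21 members, against 6.55% of all miRNAs (23 of 351). At an unadjusted p under 0.05 there were 5 members against 20.5% of all miRNAs.

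The 4 called were mmu-miR-134-5p, mmu-miR-127-3p, mmu-miR-127-5p and mmu-miR-379-5p, named after their values were seen. In the first run mmu-miR-134-5p, best known as a regulator of dendritic spines in neurons, held 10.7, 6.86, 2.87, 8.66 and 11.6 CPM, listed as control, then caerulein (100 nM, 100 pM), then TLC-S (250 uM, 62.5 uM). The second run held 17.2, 17.5, 19.1, 20.98 and 24.1 CPM and the third run 17.2, 28.1, 19.5, 25.7 and 28.2 CPM. All first-run libraries lay below all others, and the F test gave an adjusted p of 0.0105 (edgeR), with the third run higher than the first by 1.56 on the log2 scale (SE 0.32).

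In the same order of groups mmu-miR-127-3p held 140, 101, 79.7, 116 and 133.7 CPM in the first run, 181, 142, 225, 191 and 203 CPM in the second and 180, 168, 218, 221 and 198 CPM in the third. Here too no first-run library reached any other (adjusted p = 0.0162 by edgeR, the third minus the first run 0.79 on the log2 scale, SE 0.18). For mmu-miR-127-5p, the run means were 21.9 ± 7.26, 51.4 ± 18.4 and 42.5 ± 13.2 CPM (SD, n = 5; adjusted p = 0.0204 by edgeR), and the runs overlapped. For mmu-miR-379-5p, the run means were 78.0 ± 26.9, 103 ± 37.6 and 140 ± 36.9 CPM (adjusted p = 0.0441 by edgeR), again with overlap. The calls depended on few libraries: without caerulein 100 pM replicate 1 or without TLC-S 250 uM replicate 1, both of the first run, 0 members were called, without caerulein 100 nM replicate 1 there were 2, and with scaling by library totals 1. Of all tested miRNAs, 1 and 2 were then called without those first 2 libraries. Since every run holds 1 library of each group, the runs are balanced over the treatments.

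**Figure D4:**
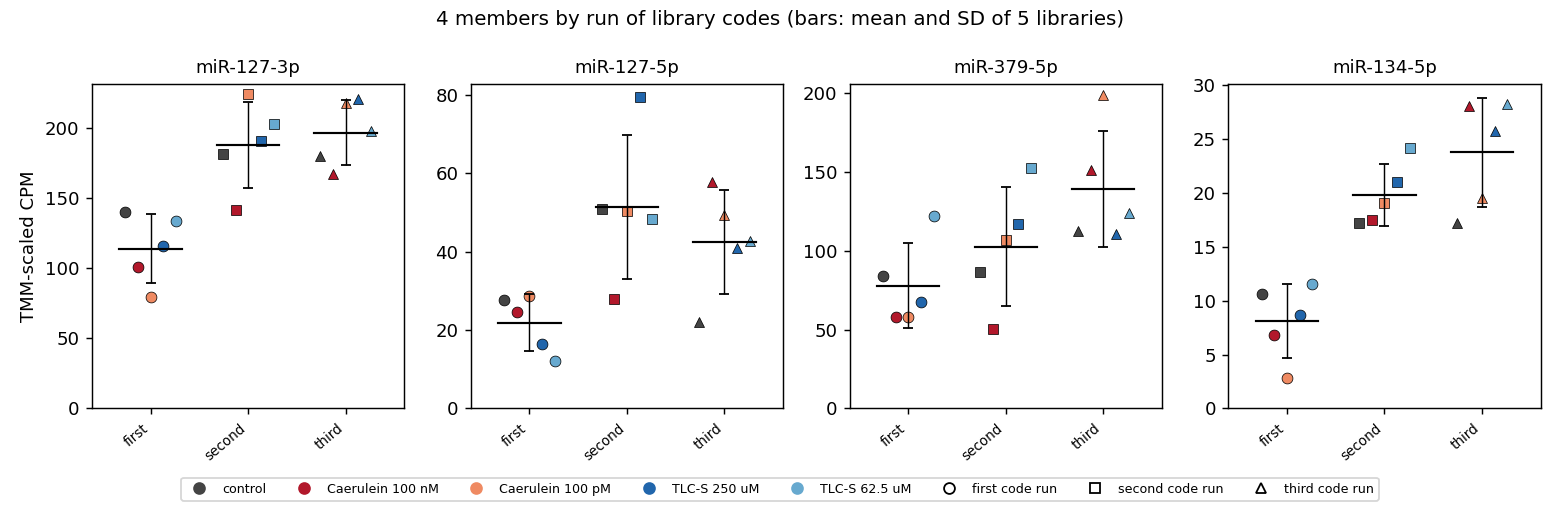
TMM-scaled CPM of mmu-miR-127-3p, mmu-miR-127-5p, mmu-miR-379-5p and mmu-miR-134-5p by run of library codes, with the mean and SD of 5 libraries and colours giving the treatment group. For mmu-miR-127-3p and mmu-miR-134-5p all first-run libraries lie below all libraries of the other runs; the 4 members were chosen for this difference.

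The more abundant members varied together over the libraries only in part. The median pairwise Pearson r of log2 CPM was 0.30 over the 55 pairs of the 11 members with at least 10 CPM, beside 0.01 over the pairs of the 262 other miRNAs at that level, and 0.12 over all 21 tested members. It was 0.30 within the Rtl1 part, 0.33 within the Mirg cluster and 0.38 between them. Single pairs of the 11 ran from -0.24 (mmu-miR-411-5p and mmu-miR-381-3p) to 0.91 (mmu-miR-127-3p and mmu-miR-134-5p). The arms mmu-miR-434-5p and mmu-miR-434-3p had r = -0.03, and mmu-miR-127-3p and mmu-miR-136-5p had r = -0.10. These are descriptions over 15 libraries, which share their scaling. Outside the region, the miRNA most like the summed members was mmu-miR-143-3p (r = 0.89, n = 15), a miRNA of smooth muscle and other mesenchymal cells. It was followed by mmu-miR-7b-5p (r = 0.84), mmu-miR-10b-5p (r = 0.78), mmu-miR-199a-3p and mmu-miR-199b-3p (both r = 0.73). The last 2 are near-identical mature miRNAs of different hairpins, between which reads can have been divided. Of the 5, mmu-miR-7b-5p and mmu-miR-199b-3p are on none of the marker lists. The others, mmu-miR-143-3p, mmu-miR-10b-5p and mmu-miR-199a-3p, are on the list of mesenchymal and stellate markers.

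That list (mmu-miR-143-3p, mmu-miR-145a-5p, mmu-miR-199a-3p, mmu-miR-199a-5p, mmu-miR-214-3p, mmu-miR-10b-5p and mmu-miR-152-3p) summed to between 23194 and 35374 CPM. The values that follow are descriptions and not tests, since the list was looked at after the likeness to mmu-miR-143-3p was seen, and that miRNA alone held 11206 of the list's mean of 29242 CPM. The summed members followed the list with Pearson r = 0.83 and Spearman rho = 0.78 (n = 15), or r = 0.80 without the 2 libraries farthest from the list's median. Without mmu-miR-143-3p in the list r was 0.45, and without mmu-miR-143-3p, mmu-miR-10b-5p and mmu-miR-199a-3p it was 0.15. Over the other lists r was 0.43 for erythrocyte, 0.37 for endothelial, 0.21 for acinar, 0.15 for leukocyte and -0.13 for islet and neuroendocrine markers.

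Of the 2 most abundant members, mmu-miR-379-5p had r = 0.94 and rho = 0.85 with the whole list, r = 0.77 without mmu-miR-143-3p in it and r = 0.54 without those 3 miRNAs. For mmu-miR-127-3p the values were r = 0.76 and rho = 0.70, then r = 0.41 and r = 0.19. Without the 2 farthest libraries r with the whole list was 0.93 for mmu-miR-379-5p and 0.79 for mmu-miR-127-3p.

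Between deviations from the code-run means, r with the whole list was 0.92 for mmu-miR-379-5p and 0.71 for mmu-miR-127-3p, and between deviations from the group means 0.94 and 0.77. A run holds 5 libraries, too few for a value of its own. The list itself had run means of 26509, 29454 and 31763 CPM, and none of its 7 miRNAs was called between runs. Among the other abundant members r was 0.70 for mmu-miR-136-3p, 0.63 for mmu-miR-134-5p and 0.56 for mmu-miR-541-5p, but 0.11 for mmu-miR-381-3p and 0.01 for mmu-miR-136-5p, although only mmu-miR-127-3p and mmu-miR-379-5p were more abundant than these. All 11 members with at least 10 CPM had a positive r (median 0.47). Over all 21 tested members the median was 0.32, with 17 positive and the lowest, mmu-miR-337-5p, at -0.33. The other tested miRNAs outside the list, likewise taken without a minimum CPM, had a median of -0.03. What part cells other than acinar cells have in the members' levels was not tested.

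**Figure D5:**
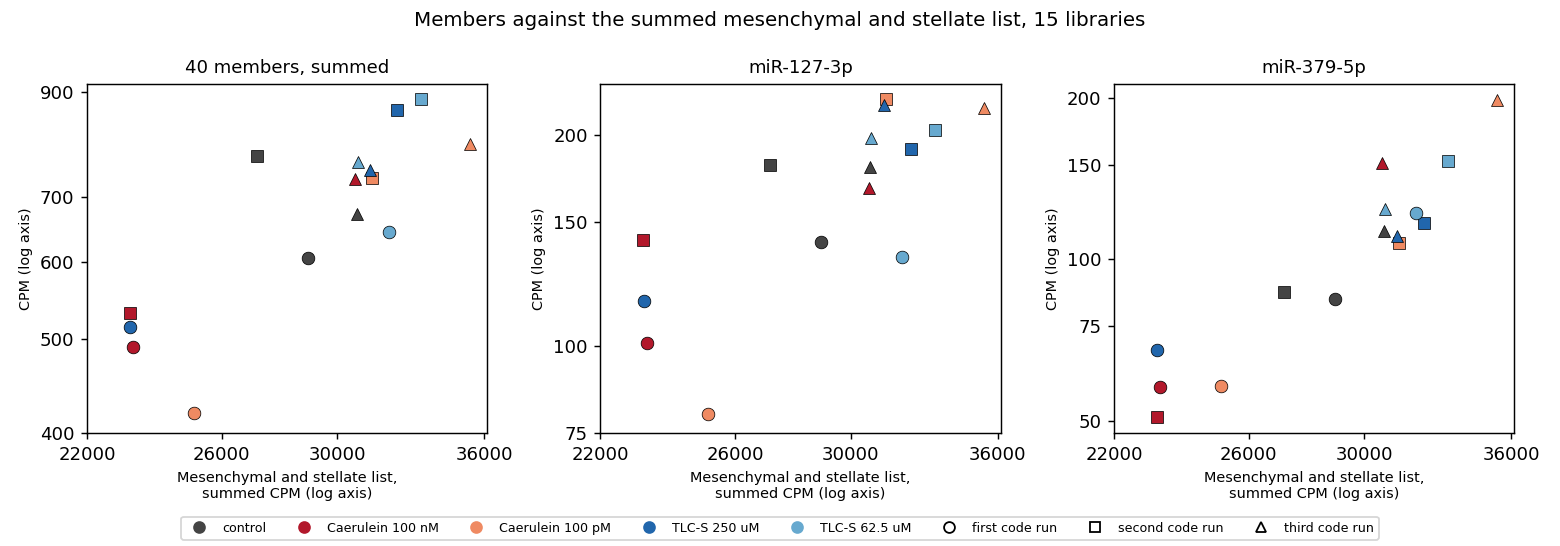
CPM of the 40 members summed, of mmu-miR-127-3p and of mmu-miR-379-5p against the summed mesenchymal and stellate marker list in the 15 libraries (log axes), with colour for the treatment group and marker shape for the run of library codes. The plotted values are higher where the list is higher, most closely mmu-miR-379-5p (r = 0.94). Libraries of every treatment lie along the same course. For the summed members r was 0.83, but 0.45 without mmu-miR-143-3p in the list.

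As a comparison with other imprinted places of the genome, 10 mature miRNAs from the Mest, Igf2, H19 and Nespas loci (mmu-miR-335, mmu-miR-483, mmu-miR-675, mmu-miR-296 and mmu-miR-298) together held 39.0 CPM ± 12.3 (SD, n = 15), against 677 CPM ± 139 for the 40 members. Of these, mmu-miR-483-3p, mmu-miR-675-5p, mmu-miR-675-3p and mmu-miR-298-3p were at 0 in every library, whereas no member was. The sets are not alike: 40 miRNAs stand against 10, and the members are a chosen list. Of the other 74 mature miRNAs between Dlk1 and Dio3, 44 had a count. Between the TLC-S doses 1 of the 4 tested miRNAs of the Mest, Igf2, H19 and Nespas loci, mmu-miR-335-5p (named after its value was seen), was called, with the lower level at 250 uM.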

How the data were processed

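Small RNA of mouse pancreatic acini was sequenced on an Illumina HiSeq instrument after mirVana isolation, per the labels' protocols. Cutadapt, Bowtie, GRCm38 and mm10 are named per the submitters' processing notes; no version or counting tool is named there. Per mature miRNA the authors deposited estimated counts, all within 0.5 of the sum of the deposited precursor values; 3 of 600 member values were fractional per precursor. Groups came from the titles.

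All 15 libraries entered 1 edgeR 4.0.16 model of 5 group means (R 4.3.3; counts rounded to whole numbers, TMM scaling, filterByExpr with minimum count 10 and minimum total 15, glmQLFit and glmQLFTest), with Benjamini-Hochberg adjustment over 351 miRNAs and 10 residual degrees of freedom; the script was tested on simulated data. DESeq2 1.42.0, other scalings and filters, a pairwise fit, robust dispersion, the replicate block and leaving out each library were alternatives. Arm ratios used 0.5 added to each count, correlations log2(CPM + 1) of TMM-scaled CPM. A single count gives counting error only, and reads carry no molecule tags. The p-values of edgeR and DESeq2 also take in the spread between libraries. Hosts come from GENCODE M21, sequences from RefSeq.

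Members described in full are the 6 with the highest mean CPM and the 3 with the smallest p in each comparison; 4 called between code runs were added after their values were seen. The members, marker lists and tests were chosen with earlier results of these data known.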

Additional observations from a re-analysis of the deposited data

How the results depend on the processing

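In the treatment comparisons and the F test, the count of called members was 0 under all 167 alternatives, DESeq2 and the replicate block included. The numbers in the library codes pair libraries only weakly. Deviations from the group means correlated from -0.12 to 0.40 (median 0.10) over 30 pairs of the same run. Over 60 pairs of different runs they correlated from -0.40 to 0.27 (median -0.034). Of 15 libraries, 11 matched their own run best, a hint from the data and not from the design. With the runs as a replicate block 0 members were called in the treatment comparisons. Of 414 alternatives of 18 single-member differences, 1 reversed (miR-370-3p with TLC-S 62.5 uM without replicate 1, -0.061; highest without a library 1.27), and the smallest adjusted p was 0.253 (edgeR or DESeq2). The members' medians depended on single libraries, as given beside them; that of caerulein 100 nM against 100 pM, 0.073, ran from -0.24 without 100 nM replicate 3 to 0.23 without 100 pM replicate 2. So did the log2 ratios of summed CPM. Against control they ran from -0.42 to -0.11 with caerulein 100 nM (-0.22 with all libraries), from -0.25 to 0.16 with 100 pM (-0.075), from -0.11 to 0.23 with TLC-S 250 uM (0.051) and from 0.041 to 0.27 with TLC-S 62.5 uM (0.16). Between doses they ran from -0.38 to 0.022 for caerulein (-0.15, and 0.19 with library totals; the cause was not tested) and from -0.27 to 0.075 for TLC-S (-0.11). Leaving out a library changed the sign of several arm ratio differences, none of which passed a test. Over the left-out libraries the difference of Mir127 from control ran from -0.55 to 0.21 with TLC-S 250 uM, from -0.26 to 0.49 with TLC-S 62.5 uM. Over the left-out libraries the difference of Mir434 from control ran from -1.16 to 0.043 with caerulein 100 pM, from -0.21 to 0.37 with TLC-S 250 uM, from -0.31 to 0.50 with TLC-S 62.5 uM. Over the left-out libraries the difference of Mir136 from control ran from -0.33 to 0.74 with TLC-S 250 uM, from -0.38 to 0.25 with TLC-S 62.5 uM. Over the left-out libraries the difference of Mir382 from control ran from -0.50 to 0.59 with caerulein 100 pM, from -0.62 to 0.77 with TLC-S 250 uM, from -0.85 to 0.093 with TLC-S 62.5 uM. With 5 counts added, Mir382 with TLC-S 250 uM was at -0.0076. Between code runs 4 members were called, but 1 with library totals, and from 0 to 4 over the left-out libraries: 2 without caerulein 100 nM replicate 1, and 0 without caerulein 100 pM replicate 1 or TLC-S 250 uM replicate 1. The r of miR-127-3p with the mesenchymal and stellate list ran from 0.67 to 0.82 and that of miR-379-5p from 0.78 to 0.96 over scalings and left-out libraries, with the whole list. Depth limits the 19 members that were not tested.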

Other observations

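Of the other mature miRNAs between Dlk1 and Dio3 that are not among the 40, 4 passed the low-count filter, and 0 of them were called in any of the treatment comparisons or the F test (edgeR), with 0 at an unadjusted p under 0.05. Their log2 differences from control reached from -1.13 to 0.60.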
